A study of Saccharomyces cerevisiae with 20 samples.

Results

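Histone H3 acetylated at lysine 18 (H3K18ac) was compared between early and late recovery from salt stress in budding yeast. Early recovery is sample D, taken 1 h after the KCl medium had been replaced by fresh medium, and late recovery is sample E, taken 2 to 3 generations later. The comparison uses the 2 H3K18ac files of these states out of 20 files in the series, which hold 1 array value set for each of 4 antibodies and 5 samples, and all ORFs with usable values. These were 6678 of 6685 listed ORFs, since 6 had missing values and YJR162C had a value above 20 in size, 343.2 in the H3 file of sample E. The largest absolute value kept in the 20 files was 11.2, at YGR020C.

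All samples came from a derivative of strain BY4742 (BQS1350 in the labels) of mating type MATα, in which Gcn5 carries a myc tag (Gcn5-MYC13-KanMX6) and which also holds the alleles ura3-0, lys2-0, leu2-0 and his3-1, grown at 30 °C in YPD with 2% glucose. Sample A was taken in normal growth without KCl, sample B 1 h after the cells were brought to 1 M KCl, and sample C after adaptation, still in 1 M KCl. Samples D and E were both without KCl, and both had been through the stress. The study asked how the acetyltransferase Gcn5 and the histone marks behave while cells pass between growth states, and the comparison of sample E with sample D covers the last step of that passage.

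H3K18ac was measured by ChIP-chip, in which DNA bound by the immunoprecipitated protein is hybridised to a tiling microarray and its signal is compared with that of an input control. The deposited values are a log-scale signal in arbitrary units, which the authors averaged in 9 upstream bins, 20 ORF bins and 9 downstream bins. The upstream bins run from the middle of the intergenic region to the start codon (5′ IGR), and the downstream bins from the stop codon to the middle of the next intergenic region (3′ IGR). Each file was centred on its own median over all bins, and a level is the mean over the bins of a region. A change is sample E minus sample D, and a change relative to H3 is the same after the H3 level of the same sample, ORF and bin was subtracted. With 1 array per state there is no replicate error and no test, so that changes are given as sizes and counts, a gene was counted as higher or lower when the change reached 0.2 in size, and the spread over ORFs stands beside the medians of all ORFs. The values are averages over a culture, so that fewer cells with the mark and less of it per cell cannot be told apart.

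Gcn5, the catalytic subunit of the SAGA coactivator complex, acetylates several lysines of histone H3, and H3K18ac in yeast is found mainly around the promoters and early coding regions of active genes. In growing yeast a large part of transcription is devoted to ribosomal proteins and to the factors that assemble ribosomes, and these genes are turned down together in stress. Stress turns on another broad set of genes, among them chaperones, antioxidant enzymes and enzymes of trehalose and glycogen metabolism. The known roles are given here as background and not as results.

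From sample D to sample E, H3K18ac was higher over most ribosomal protein genes and lower upstream of most general stress-induced genes. Of 137 ribosomal protein genes, 104 were higher by 0.2 or more upstream, where 7.44% of all ORFs were, and 111 were higher over the ORF, where 4.99% of all ORFs were. Of 86 general stress-induced genes, 50 were lower by 0.2 or more upstream, where 17.5% of all ORFs were, and none was higher. Over all 6678 ORFs the typical change was small, with a median of -0.037 upstream (interquartile range -0.146 to 0.059), 0.004 over the ORF (-0.061 to 0.063) and -0.050 downstream (-0.166 to 0.047).

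**Figure D1:**
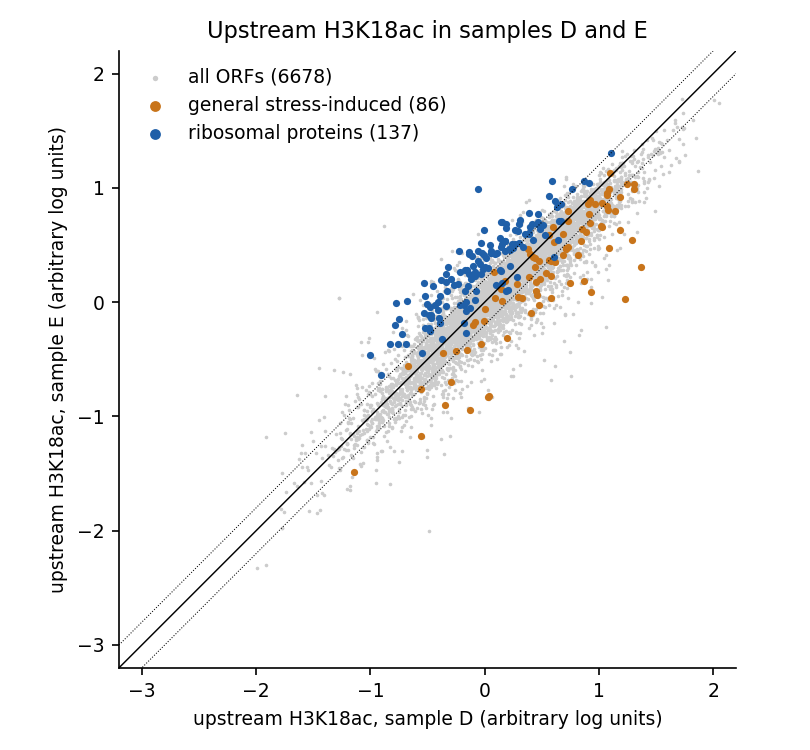
Upstream H3K18ac of each ORF in sample E against sample D, both in arbitrary log units after median centring, with 1 point per ORF. The solid line marks equal levels and the dotted lines a change of 0.2 either way; 104 of 137 ribosomal protein genes (blue) lie above the upper dotted line and 50 of 86 general stress-induced genes (orange) below the lower one.

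Upstream, 497 ORFs were higher in sample E by 0.2 or more and 1167 were lower, and the changes ran from -1.51 to 1.55. Over the ORF the numbers were 333 higher and 332 lower, which is 4.97% for the lower side. Downstream, 428 ORFs (6.41%) were higher and 1335 (20%) were lower. The balance between the directions depends on how the files are brought to a common scale. After quantile normalization of the 5 H3K18ac files, 9.33% of ORFs were higher and 13.9% lower upstream, 6.08% higher and 3.89% lower over the ORF, and 8.73% higher and 15.5% lower downstream.

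Relative to H3 the upstream median change was -0.070, with 704 ORFs (10.5%) higher and 1941 (29.1%) lower. Downstream it was -0.090, with 740 (11.1%) higher and 2210 (33.1%) lower. Over the ORF it was -0.012, with 569 (8.52%) higher and 686 (10.3%) lower, but this median was positive, at 0.035, in the values as deposited, and at 0.032 after quantile normalization. The split shifted likewise, to 12.9% higher and 6.96% lower over the ORF as deposited and to 12.5% and 6.59% after quantile normalization. Upstream it was 14.3% higher and 23.5% lower as deposited and 15.2% and 21.2% after quantile normalization, and downstream it was 15.4% and 25.1% after quantile normalization. The study's methods give the same catalogue number for the H3K18ac and the H3 antibody, while the labels give it for H3K18ac alone, which limits what the subtraction means. The 2 sets of files differ, with a mean over ORFs of 0.211 for H3K18ac and -0.667 for H3 in bin 7 of sample D. Of the 497 ORFs that were higher upstream, 349 (70.2%) also passed 0.2 in the same direction relative to H3, and of the 1167 that were lower, 1005 (86.1%) did.

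The median levels of all ORFs place these small shifts among the 5 samples. Upstream the median H3K18ac level was 0.204 in sample A, 0.172 in B, 0.199 in C, 0.217 in D and 0.183 in E, so that sample D was the highest of the 5. Downstream it was -0.138 in A, -0.124 in B, -0.139 in C, -0.117 in D and -0.158 in E, with sample D the highest and sample E the lowest. Over the ORF the 5 medians lay between -0.065 in sample A and -0.027 in sample B, with -0.045 in D and -0.037 in E.

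The lower H3K18ac of sample E outside the coding regions was uneven along the bins. The bin profiles here and beside neighbouring genes were made with median centring only. After quantile normalization the medians of all ORFs upstream and downstream were smaller in size. In the average over all ORFs the change was deepest in bin 7 of the 9 upstream bins, where the level went from 0.211 in sample D to 0.129 in sample E, a change of -0.082, while in bin 9, directly before the start codon, the change was -0.018. Behind the stop codon it was deepest in the bins numbered 31 and 32 of all 38, with changes of -0.110 and -0.113. Across the ORF the mean change stayed between -0.029 in its last bin and 0.008. H3 moved the other way at the same places, by 0.074 in bin 7 and by 0.071 and 0.075 in bins 31 and 32, and in bin 7 H3 was lower than in any other bin in both samples.

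**Figure D2:**
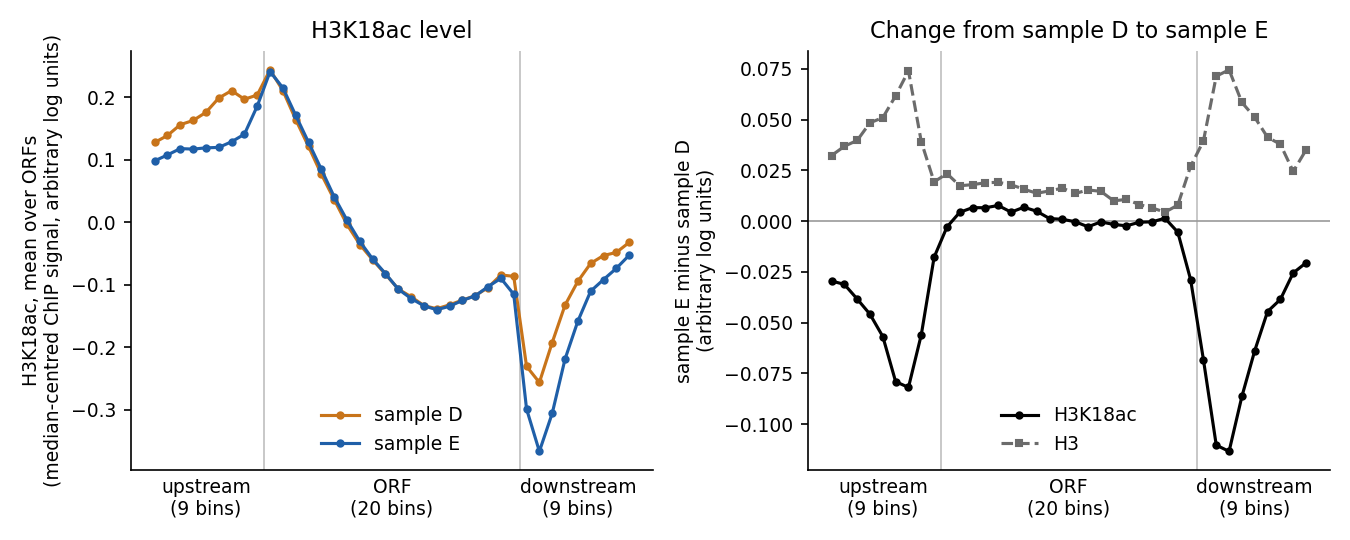
Left, mean H3K18ac over 6678 ORFs in each of the 38 bins for samples D and E; right, the mean change from sample D to sample E of H3K18ac and of H3, all in arbitrary log units. H3K18ac of sample E dips below sample D on either side of the ORF, by 0.082 in bin 7 and by 0.113 in bin 32, where the H3 change is positive.

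The downstream dip was present beside convergent and tandem neighbours. Where the next gene downstream was convergent, so that no promoter of it faced the region, the change reached -0.142 in bin 31, and where it was in tandem it reached -0.134 in bin 32. Upstream, the median change was -0.025 at 2958 ORFs with a divergent neighbour and -0.057 at 2738 with a tandem neighbour. The upstream region ends at the middle of the intergenic region, so that 2 divergent genes do not share the same bins.

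The median change differed little between classes of gene length, while the spread differed more. Over the ORF the median change was 0.017 for 2405 genes under 1 kb, 0.004 for 2272 genes of 1 to 2 kb, -0.011 for 799 genes of 2 to 3 kb and -0.011 for 527 genes of 3 kb or longer. In the shortest class 8.73% of genes were higher and 6.57% lower by 0.2 or more, and in the longest class 0.569% and 0.759%. ORFs within 20 kb of a chromosome end, 261 in number, had a median change of 0.037 over the ORF and -0.009 upstream. When ORFs were ordered by their upstream level in sample A, which is outside the comparison, the upstream median was -0.071 in the fifth with the highest levels and between -0.037 and -0.021 in the other 4.

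The ranking of ORFs by H3K18ac was largely retained between the samples. Spearman's rho between the levels of samples D and E over 6678 ORFs was 0.926 upstream, 0.957 over the ORF and 0.946 downstream. The SD of the upstream change over ORFs was 0.205, which ranked 5 among the 10 pairs of samples, between 0.150 for sample E against sample A and 0.285 for sample C against sample B. By this measure, a description of single arrays, sample E differed less from sample A than from sample D.

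Ribosomal protein genes carried the most widespread gain. The upstream median change of the 137 genes was 0.330 (interquartile range 0.211 to 0.438), 130 of them had a change above 0 against 40% of all ORFs, and RPL3 was the only gene lower by 0.2 or more. Over the ORF the median was 0.307, with 134 changes above 0 and none at -0.2 or below. Downstream it was 0.175, with 61 genes higher and 12 lower. They made up 104 (20.9%) of the 497 ORFs that were higher upstream and 111 (33.3%) of the 333 that were higher over the ORF.

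The median upstream level of the ribosomal protein genes was 0.205 in sample A, -0.068 in B, 0.422 in C, -0.021 in D and 0.312 in E. The 2 samples taken 1 h after a change of medium, B and D, were the lowest, and sample E lay between A and C. Over the ORF the medians were 0.290, 0.210, 0.432, 0.087 and 0.402 in the same order, with sample D the lowest of the 5.

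The gain held in both subunits. The 81 genes of the large subunit had an upstream median of 0.35 with 64 higher, and the 56 genes of the small subunit had 0.310 with 40 higher. Many of these proteins are encoded by 2 near-identical genes, and an array may not tell the copies apart. The 19 genes with 1 copy, as judged from gene symbols alone, had an upstream median of 0.371 with 15 higher and an ORF median of 0.318 with 16 higher. Similarity of their sequences to other genes was not checked. Among 59 pairs of copies, both were higher by 0.2 or more upstream in 36, 1 copy in 17 and neither in 6. The median absolute difference between the copies was 0.159 upstream and 0.116 over the ORF, and the largest upstream was 0.632, between RPS22A, with a change of 0.63, and RPS22B.

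H3 over the ribosomal protein genes was lower in sample E. The median H3 change was -0.10 upstream, where 31 genes were lower by 0.2 or more against 5.35% of all ORFs, and -0.093 over the ORF. Relative to H3 the median H3K18ac change was larger. It was 0.420 upstream with 115 genes higher, against 10.5% of all ORFs, and 0.379 over the ORF with 125 higher, against 8.52%. The other antibodies had smaller positive medians, 0.135 upstream for H4K16ac, with 45 genes higher against 3.97% of all ORFs, and 0.060 for Gcn5, with 9 higher against 2.50%. The gain was spread over the whole gene, and the mean H3K18ac change of the list was lowest, at 0.256, in the outermost upstream bin and highest, at 0.415, in the last bin before the start codon, when downstream bins are left out.

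**Figure D3:**
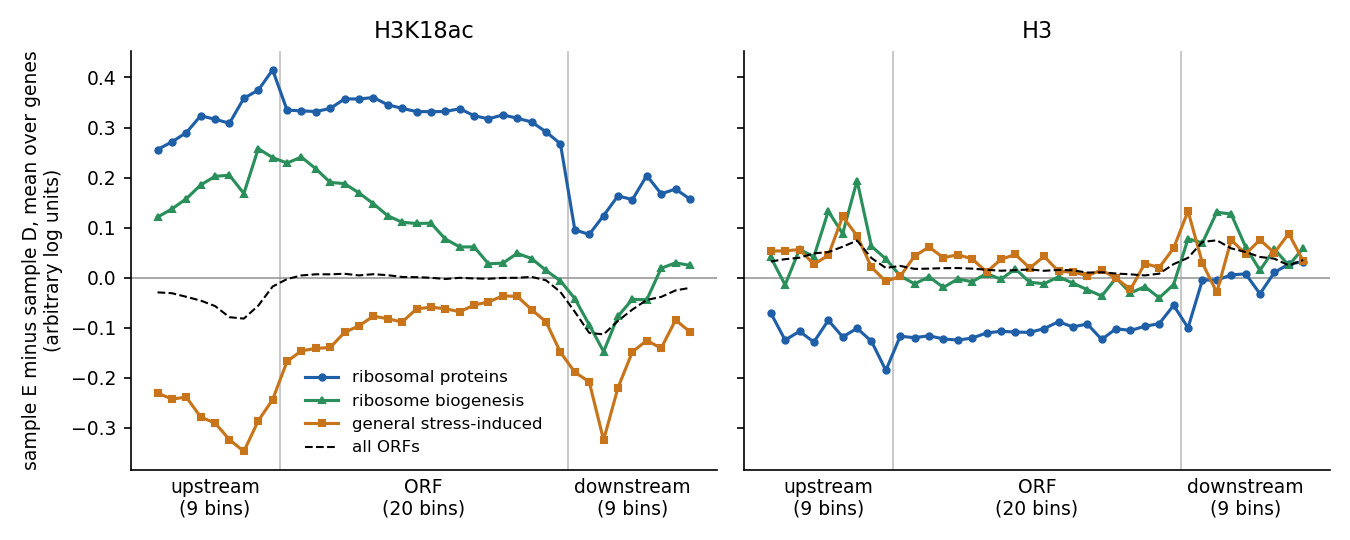
Mean change from sample D to sample E in each of the 38 bins, in arbitrary log units, for H3K18ac (left) and H3 (right) over ribosomal protein genes (137), ribosome biogenesis genes (141), general stress-induced genes (86) and all ORFs (6678). The ribosomal protein genes stay high along the ORF, the ribosome biogenesis genes decline along it from 0.229 in its first bin, and the stress genes are lowest in bin 7, upstream, at -0.347.

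RPL28, which encodes a protein of the large subunit, had the largest upstream gain under the rule for named genes. Its upstream level was 0.30 in sample A, 0.47 in B, 0.56 in C, -0.06 in D and 0.99 in E. Sample D was the lowest of the 5 and sample E the highest, a change of 1.05, and 1.42 relative to H3. RPS16B, a protein of the small subunit, had levels of -0.12, -0.64, 0.32, -0.78 and -0.01 in samples A to E, with B and D low and the change 0.77. RPL13A, divergent from it, changed by 0.45 upstream. RPL10, with 1 copy, changed by 0.67 upstream, from -0.23 to 0.45.

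Over the ORF, RPL9A was among the 4 largest gains under the rule for named genes. It had 0.17 in sample A, -0.08 in B, 0.50 in C, -0.14 in D and 0.44 in E, with B and D low and a change of 0.58. The largest gain under that rule was at MIN10, from -0.16 to 0.52, a change of 0.68, a short gene of 264 bp that lies next to RPL29, a ribosomal protein gene that itself changed by 0.67 over the ORF.

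RPL3 had 0.44 upstream in sample A, 0.70 in B, 0.63 in C, 0.61 in D and 0.40 in E. Its change of -0.21 was opposite in sign to that of 130 of the 137 genes, while relative to H3 it was 0.43, and its upstream H3 changed by -0.64. Over the ORF RPL3 changed by 0.16. The small-subunit gene with the lowest change, RPS3, had -0.09 upstream but 0.45 over the ORF.

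Ribosome biogenesis genes, which encode the factors that process ribosomal RNA and assemble the subunits, gained H3K18ac mainly at the 5′ side. The upstream median of 141 genes was 0.175, with 62 higher and 6 lower by 0.2 or more. Over the ORF it was 0.10 with 24 higher and none lower. Downstream it was -0.045, close to the -0.050 of all ORFs. Of all ORFs 6.41% were higher and 20% lower downstream, and of these genes 9 (6.38%) and 19 (13.5%) were. Their median upstream level was -0.152 in sample A, -0.481 in B, 0.095 in C, -0.364 in D and -0.126 in E, with B and D again the lowest. Relative to H3 the upstream median was 0.118, with 50 higher and 16 lower, where 10.5% and 29.1% of all ORFs were. The upstream H3 median of these genes changed by 0.061.

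RRP3 and SSF1, a divergent pair, were the 2 members with the largest gain. RRP3 encodes an RNA helicase for processing of the small-subunit RNA, and its upstream level was -1.33 in sample A, -1.17 in B, -0.52 in C, -1.45 in D and -0.57 in E. SSF1, a factor in large-subunit assembly, had -1.58, -1.37, -0.78, -1.64 and -0.81. The 2 genes have the same order of samples, with C and E high and A, B and D low, and changes of 0.88 and 0.83. They flank the same intergenic region, so that their values may not be independent. SNU13, a protein of the box C/D snoRNPs that guide modification of ribosomal RNA, had 0.35, -0.74, 0.61, -0.29 and 0.45, so that B and D were the low samples, with a change of 0.74. The lowest member was RIX1, with -0.90 in D and -1.30 in E.

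Other parts of the protein synthesis apparatus had smaller median changes upstream. The upstream median of 24 subunits of RNA polymerases I and III, which transcribe ribosomal and transfer RNA genes, was 0.131 with 8 higher and 1 lower. The largest change was at RPA43, with -0.88, -1.38, 0.26, -1.31 and -0.59 in samples A to E and a change of 0.72. For 36 translation initiation and elongation factors the median was 0.064 with 6 higher and 1 lower, from -0.41 at TIF4632 to 0.38 at FUN12. The 70 mitochondrial ribosomal protein genes had an upstream median of -0.0003, and levels of 0.408, 0.332, 0.406, 0.40 and 0.374 in samples A to E. Of these genes 2 (2.86%) were higher and 11 (15.7%) lower, where 7.44% and 17.5% of all ORFs were. The sign of the median change turned positive, up to 0.028, in the values as deposited and in both other scalings.

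**Figure D4:**
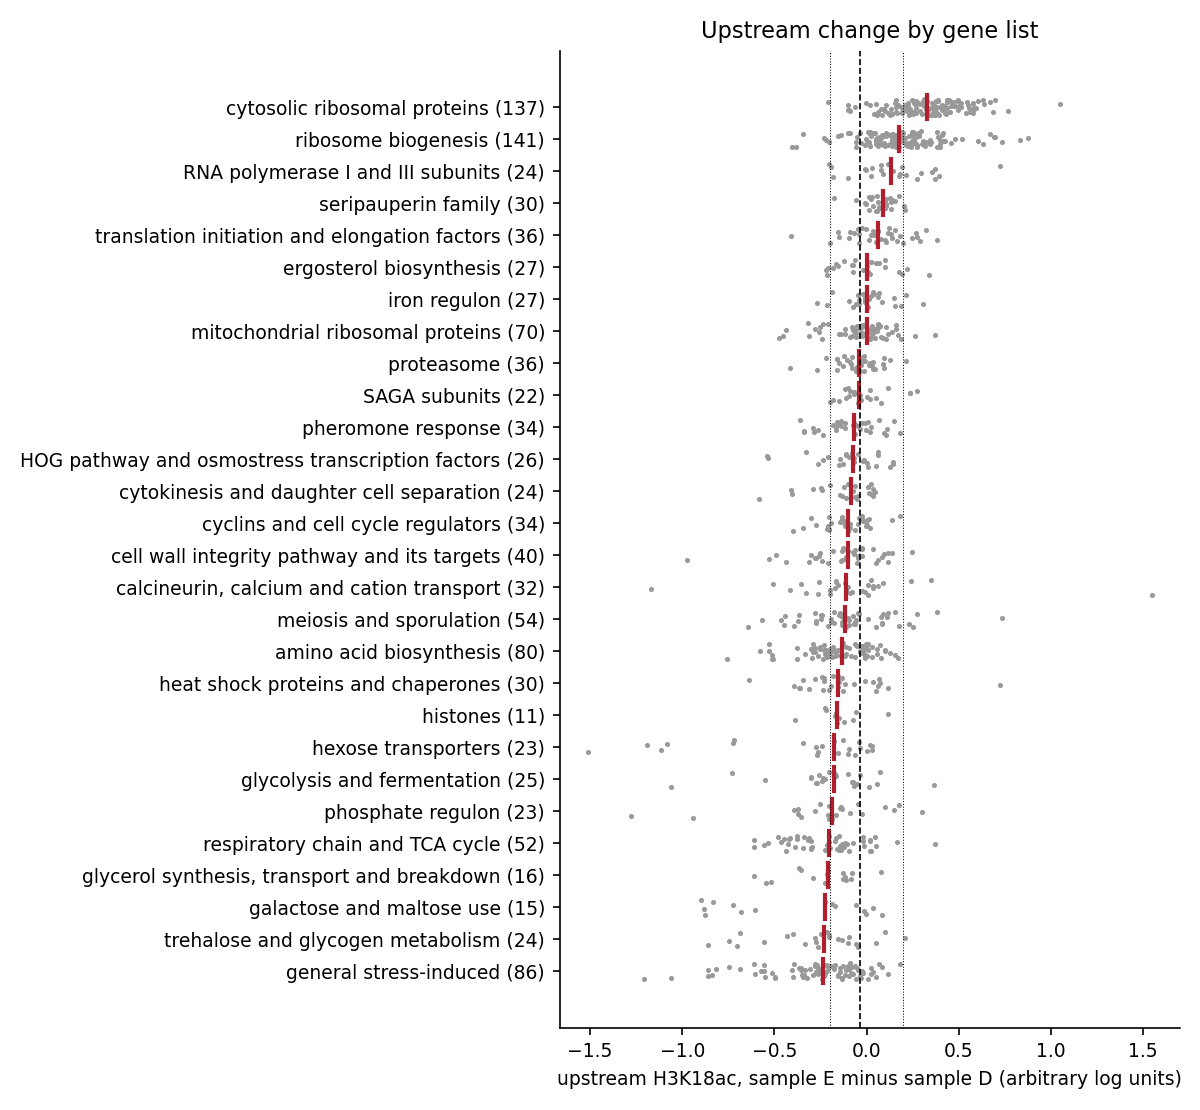
Upstream H3K18ac change from sample D to sample E in arbitrary log units for the members of 28 gene lists (1 point per gene, number of genes in brackets, red bar the list median). The dashed line is the median of all ORFs, -0.037, and the dotted lines mark -0.2 and 0.2; list medians run from -0.237 for general stress-induced genes to 0.330 for ribosomal proteins.

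General stress-induced genes had an upstream median of -0.237 (interquartile range -0.357 to -0.094), and only 9 of 86 had a change above 0. Their median upstream level was 0.381 in sample A, 0.639 in B, 0.365 in C, 0.580 in D and 0.352 in E, so that B and D were high and A, C and E close together. Over the ORF the median was -0.054 with 13 lower and none higher, and downstream it was -0.148 with 33 lower and 2 higher. H3 changed little upstream of these genes, by 0.020 in the median, and relative to H3 the upstream median was -0.270. Relative to H3, 46 of these genes were lower and 1 higher, where 29.1% and 10.5% of all ORFs were. The median upstream levels of these genes relative to H3 were 0.771 in sample A, 1.13 in B, 0.866 in C, 0.913 in D and 0.688 in E. On that scale B was the highest, E the lowest and D close to C.

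PEP4, which encodes the vacuolar protease proteinase A, had the lowest change of the list. Its upstream level was 0.41 in sample A, 1.20 in B, 0.18 in C, 1.23 in D and 0.03 in E. B and D stood apart from the other 3, and the change was -1.21, or -1.90 relative to H3. HXK1, a hexokinase of cells low in glucose, had 0.51, 0.86, 0.83, 1.37 and 0.31, with sample D the highest and a change of -1.06. CIN5, a stress transcription factor, had -0.44, 0.88, 0.23, 0.04 and -0.83, highest in B, with a change of -0.86. The highest member was UGA2, an enzyme of GABA breakdown, at 0.18.

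Glycerol is the osmolyte of yeast, and its genes showed the same direction upstream. Of 16 genes for its synthesis, transport and breakdown, 9 were lower, none was higher and the median was -0.211. The glycerol importer gene STL1 had -0.97, 0.14, -0.34, -0.56 and -1.17 in samples A to E, with B the highest and E the lowest. FPS1, the glycerol channel that closes in hyperosmotic medium, had 0.83, 1.01, 0.79, 1.12 and 0.60, with D the highest. Over the ORF these genes had a median of -0.061, and none passed 0.2 either way.

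Of 24 genes of trehalose and glycogen metabolism 15 were lower upstream and 1 was higher, with a median of -0.231. GAC1, a phosphatase subunit that activates glycogen synthase, had -0.45, -0.07, -0.27, 0.03 and -0.83 in samples A to E. GPH1, glycogen phosphorylase, had 0.60, 0.88, 0.42, 1.29 and 0.55, and NTH2, a trehalase, had 0.19, 0.57, 0.12, 0.66 and -0.04. In each of the 3 genes sample D was the highest, and the changes to sample E were -0.86, -0.75 and -0.70. These genes were chosen by their change, so that sample D tends to lie at the top of their range.

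The signalling genes of the osmotic stress response moved less. The 26 genes of the HOG pathway and the osmostress transcription factors had an upstream median of -0.075, with 6 lower, a share of 23.1% close to the 17.5% of all ORFs. The transcription factor gene MSN2 had 0.13, 0.69, 0.35, 0.42 and -0.12 in samples A to E, with a change of -0.54. Of 40 genes of the cell wall integrity pathway and its targets 12 were lower and 1 higher, with a median of -0.102. The cell wall sensor WSC3 had -1.21, -0.60, -0.85, -0.35 and -1.33, with D the highest and E the lowest, and its change of -0.98 came with an H3 change of 0.94.

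Among 32 genes of calcineurin, calcium and cation transport 7 were lower and 3 higher, with a median of -0.110, shares near the 17.5% and 7.44% of all ORFs. ENA1, the ATPase that exports sodium and lithium, had -0.76 upstream in sample A, -0.08 in B, -0.68 in C, 0.61 in D and -0.56 in E. Sample D was the highest and A, C and E lay close together, with a change of -1.17. ENA2, its near-identical neighbour, changed by 0.009 upstream. PMA1, the proton pump of the plasma membrane, changed by 0.35, from -0.89 to -0.54. The largest positive upstream change of all ORFs was also in this list, at the calcineurin subunit gene CNA1. It had 0.40, 0.31, 0.47, -0.88 and 0.67 in samples A to E, so that only sample D stood apart. H3 there changed by 1.38 in the same direction, the change relative to H3 was 0.17, and CNA1, singled out here after its values were seen, is outside the rule for named genes.

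Of 30 heat shock proteins and chaperones 12 were lower upstream and 1 was higher, with a median of -0.156. MDJ1, a mitochondrial chaperone, had 0.63, 0.57, 0.52, 0.96 and 0.33 in samples A to E, with D the highest and E the lowest. The member that was higher was SSB1, whose product binds nascent chains at the ribosome. Its levels were -0.51, -0.80, -0.40, -1.08 and -0.35, lowest in B and D as in the ribosomal protein genes, and its change was 0.73. SSB1 and the ribosome assembly gene SSF1 each have a near-identical copy elsewhere in the genome, so that their values over the ORF are less certain.

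Lists of respiration, glycolysis, hexose transport and galactose and maltose use also had negative upstream medians, with about as many members that were not lower by 0.2 as members that were. Respiratory chain and TCA cycle genes, 52 in number, had a median of -0.201 with 26 lower and 1 higher, and an ORF median of -0.068 with 8 lower. NDE1, a mitochondrial NADH dehydrogenase, had 0.23, 0.18, 0.16, 0.39 and -0.22, and IDH2, a subunit of isocitrate dehydrogenase, had 0.12, 0.38, -0.18, 0.45 and -0.15. Sample D was the highest in both genes, which were likewise chosen by their change. Of 25 genes of glycolysis and fermentation 12 were lower and 1 was higher, the minor pyruvate decarboxylase gene PDC5 at 0.36.

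Of 23 hexose transporter genes and their regulators 11 were lower and none was higher, with a median of -0.175. The high-affinity glucose transporter gene HXT6 had the lowest change of all ORFs, with levels of -0.90, -0.63, -1.28, -0.49 and -2.0 in samples A to E and a change of -1.51. Its near-identical neighbour HXT7 had 0.25, 0.002, -0.19, 0.75 and -0.44, a change of -1.19, and the values of the 2 genes may not be independent. MTH1, a repressor of glucose transporter genes, had -0.10, -0.33, -0.17, 0.83 and -0.29, with only sample D high. The glucose-repressed invertase gene SUC2 had 0.09, 0.46, -0.12, 0.77 and -0.10, and MAL12, a maltase gene with near-identical copies, had -0.43, 0.24, -0.38, 0.25 and -0.65. They belong to a list of 15 genes of galactose and maltose use, of which 8 were lower and none higher, with a median of -0.226, and -0.451 relative to H3. The galactose genes GAL1, GAL7 and GAL10 changed by 0.085, 0.034 and -0.005.

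In the phosphate regulon 11 of 23 genes were lower upstream and 1 was higher, with a median of -0.189. SPL2, an inhibitor of low-affinity phosphate uptake, had -0.52, 0.88, -0.38, 1.06 and -0.22 in samples A to E. ARO9, an aromatic aminotransferase gene divergent from SPL2, had -0.65, 0.66, -0.56, 0.75 and -0.64. Both genes were high in B and D and low in A, C and E, and they changed by -1.28 and -1.39. They flank the same intergenic region, so that their values may not be independent. H3 changed by 0.80 at each, so that the changes relative to H3 were -2.08 and -2.19. PHO89, a sodium-phosphate cotransporter, changed by -0.94, and PHO84, the main high-affinity phosphate transporter, was the member that was higher, at 0.30, though it was -0.25 relative to H3.

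Of 80 genes of amino acid biosynthesis 29 were lower upstream and none was higher, with a median of -0.132 and a median level of 0.168, 0.107, 0.150, 0.384 and 0.186 in samples A to E. Without H3 subtraction only sample D was high here, in contrast to the stress-induced genes. Relative to H3 the median levels were 0.831, 0.556, 0.676, 0.918 and 0.762, with D still the highest, A next to it and B the lowest. MET2, a gene of methionine synthesis, had 0.52, 0.27, 0.24, 1.09 and 0.33 without subtraction, with D the single high sample. The phosphate regulon list had median levels of 0.323, 0.377, 0.250, 0.669 and 0.288, again highest in D.

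Several lists had small upstream medians, where the median of all ORFs was -0.037. Upstream medians were 0.001 for 27 genes of the iron regulon, 0.004 for 27 genes of ergosterol biosynthesis, -0.039 for 36 proteasome genes and -0.042 for 22 SAGA subunit genes, with 2, 2, 1 and 3 genes higher and 2, 3, 3 and 0 lower. The higher shares were 7.41%, 7.41%, 2.78% and 13.6%, where 7.44% of all ORFs were higher. The lower shares of 7.41%, 11.1%, 8.33% and 0% were below the 17.5% of all ORFs. The SAGA median was 0.002 after quantile normalization, and the proteasome median was 0.002 with the median over bins. GCN5 itself had 0.42, 0.12, 0.28, 0.19 and 0.26 upstream in samples A to E. Its change was 0.08, and -0.24 relative to H3. ACT1, the actin gene, had 0.83, 0.73, 0.73, 0.90 and 0.63, with a change of -0.27.

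Cell cycle and mating genes had upstream medians somewhat below the -0.037 of all ORFs. The upstream median was -0.101 for 34 cyclins and cell cycle regulators, with 9 lower, -0.086 for 24 genes of cytokinesis and daughter cell separation, with 6 lower, and -0.071 for 34 pheromone response genes, with 7 lower, and no member of the 3 lists was higher. Of all ORFs 17.5% were lower, a share near that of the pheromone response genes, and 7.44% were higher. Relative to H3 the 3 lists lay further below all ORFs, of which 29.1% were lower and 10.5% higher, with a median of -0.070. Their medians were -0.184, -0.111 and -0.202, with 16, 8 and 17 members lower and 2, 0 and 0 higher. For 11 histone genes the upstream median without H3 subtraction was -0.158 with 3 lower. Of 54 meiosis and sporulation genes, which are silent in vegetative growth, 15 (27.8%) were lower. A further 5 (9.26%) were higher, a share near the 7.44% of all ORFs. Relative to H3 the median of this list was -0.197, with 27 lower and 4 higher. Its largest upstream gain without H3 subtraction was at SPO75, with -1.35, -1.53, -1.54, -1.91 and -1.18 in samples A to E and a change of 0.73. The 30 genes of the seripauperin family, whose members are near-identical and mostly close to chromosome ends, had an ORF median of 0.119 with all 30 changes above 0 and 2 at 0.2 or more.

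TPO2, a polyamine exporter with the close paralogue TPO3, had 0.49, -0.49, 0.03, -0.38 and 0.38 upstream in samples A to E, low in B and D, with a change of 0.76. YGR067C had -0.49, 0.26, -0.72, 0.58 and -0.68, high in B and D, with a change of -1.26. Genes named under the rule were chosen by their change, and other list members were named after their values were seen. Samples D and E therefore tend to lie at the ends of the range of these genes. Of 5452 ORFs that met the other conditions of the rule for upstream regions, 294 were higher and 873 lower by 0.2 or more both with and without H3 subtraction.

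**Figure D5:**
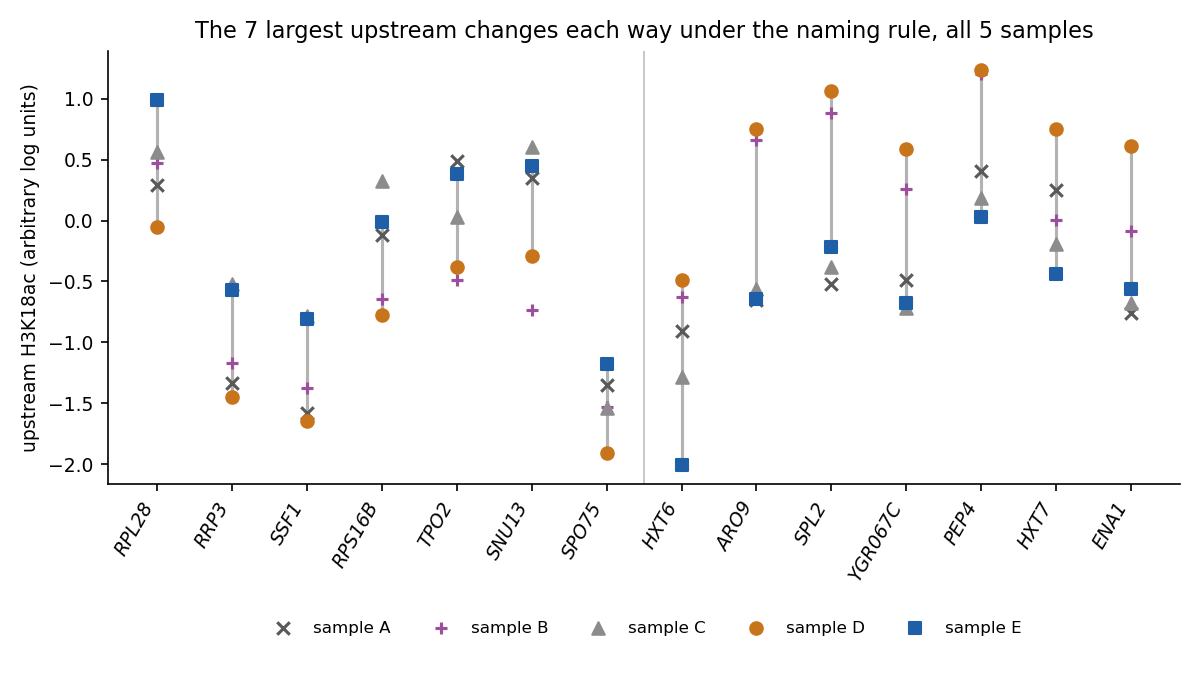
Upstream H3K18ac level in arbitrary log units in samples A to E for the 7 genes with the largest positive (left) and the 7 with the largest negative (right) change from sample D to sample E among those that meet the rule for named genes; grey lines join samples D and E. Sample D is the lowest sample at 5 of the 7 genes on the left and the highest at all 7 on the right.

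Over the ORF, the 4 largest losses under the rule for named genes lay beside promoters with losses of their own. YIL163C, a short ORF of 354 bp divergent from SUC2, had 0.10, 0.55, -0.01, 0.89 and -0.07 in samples A to E, a change of -0.95, and SUC2 changed by -0.88 upstream. YGL034C, a short ORF next to the promoter of the glucose repressor gene MIG1, had 0.98, 1.39, 0.93, 1.47 and 0.68, a change of -0.79, and MIG1 changed by -0.62 upstream. MPC3, a subunit of the mitochondrial pyruvate carrier, had -0.15, 0.59, -0.04, 0.51 and -0.29, a change of -0.80, and the divergent gene YAP1802 changed by -0.57 upstream. COQ21, of 201 bp, changed by -0.67, and the divergent gene OM14 by -0.38 upstream. All 4 genes were higher in B and D than in A, C and E, and all 4 were under 1 kb.

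Downstream, several of the largest changes under the rule for named genes adjoined the promoter of the next gene. PTP1, a protein tyrosine phosphatase gene, had -0.33, -0.59, -0.17, -1.01 and -0.10 downstream in samples A to E, a change of 0.90, and the next gene is SSB1, with 0.73 upstream. ART5, an adaptor for ubiquitination, had -0.43, 0.19, -0.64, 0.54 and -0.66, a change of -1.21, and faces the upstream region of YGR067C. YDR344C changed by -1.04 and faces the upstream region of HXT6. RPC19, a subunit shared by RNA polymerases I and III, changed by 0.83 downstream, whereas the facing gene DBP2 changed by 0.05 upstream. YDL114W changed by 0.85 and YPR027C by -1.05, and both end towards the end of another gene.

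Across ORFs, the change of H3K18ac ran with that of the other antibodies to different extents. Spearman's rho over 6678 ORFs was 0.482 upstream, 0.538 over the ORF and 0.375 downstream with H4K16ac, 0.333, 0.389 and 0.253 with Gcn5, and -0.194, -0.281 and -0.183 with H3. These values describe single arrays, the ORFs are not independent, and whether the 4 antibodies of a state share their input DNA is not given in the sources used here. Named genes differed in this respect. TPO2 changed by 0.62 for Gcn5 and 0.71 for H4K16ac upstream, RPL28 by 0.04 and 0.94, and RRP3 by -0.30 and 0.31. ENA1 changed by -0.16 for Gcn5 and -0.71 for H4K16ac, and HXT6 by -0.23 and -0.14.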

How the data were processed

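H3K18ac, H3, Gcn5 and H4K16ac were measured by ChIP-chip in samples A to E. The authors used the S. cerevisiae Tiling 1.0R array of Affymetrix for ChIP and input DNA, computed the signal with Tiling Analysis Software, brought the 5 samples to one median and averaged the signal over 38 bins per ORF. The deposited values are this binned score, on a log scale whose base, genome build, annotation and software version are not given in the sources used here. The 2 cultures of the study are not kept apart in the files, and per the labels each group is 1 file, so that no p-value is given and precision is limited by the number of arrays.

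Files were centred on their median over all bins, 6678 of 6685 ORFs were kept, bins were averaged per region, and E minus D was counted at 0.2. The names, lengths and neighbours of 6003 ORFs came from the RefSeq gene table of assembly R64; 675 were not named there. The 28 gene lists and the comparison were chosen with earlier results of these data known. Named genes overlapped no other gene, lay 20 kb or more from a chromosome end, had no bin of the region exactly midway between its neighbours in sample D or E, and passed 0.2 in the same direction with and without H3 subtraction: the 7 largest changes each way upstream, 4 over the ORF and 3 downstream. The rule further holds GCN5, ACT1 and the extreme members of each list upstream, whatever their size, of which those of several lists are given only within the counts; other genes were named after their values were seen. A further 2 genes that the rule names over the ORF are not reported here. Alternatives covered centring, scaling, the bins used, the ORFs included, the threshold and H3 subtraction. The functions were tested on simulated data. Calculations used scipy 1.17.1, pandas 2.3.3 and numpy 2.4.6 in Python 3.11.15, and figures matplotlib 3.10.9.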

Additional observations from a re-analysis of the deposited data

How the results depend on the processing

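No paired analysis was possible because the labels carry no replicate numbers and each state has 1 file per antibody. For the same reason no replicate could be left out, and the spread between cultures is unknown. All-ORF medians were small against the differences that scaling makes, and the cause of these differences was not tested. Quantile normalization gave medians of -0.0068 upstream, 0.023 over the ORF and -0.021 downstream, and relative to H3 -0.0101, 0.032 and -0.031. The values as deposited gave 0.021 over the ORF and -0.032 downstream, and relative to H3 -0.023, 0.035 and -0.042. The median over bins gave -0.026 downstream and, relative to H3, 0.0047 over the ORF, and the bins nearest the stop codon gave -0.065 downstream. Relative to H3 over the ORF, 12.9% of ORFs were higher and 6.96% lower as deposited, and 12.5% were higher and 6.59% lower after quantile normalization.

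At a threshold of 0.1, higher and lower shares were 16.7% and 34% upstream, 15.8% and 15.7% over the ORF and 15.2% and 37.9% downstream, and relative to H3 20.2% and 44.8% upstream, 20.6% and 25.6% over the ORF and 19.4% higher downstream. At 0.4 they were 1.80% and 4.45%, 1.03% and 1.27%, and 1.56% and 4.90%, and relative to H3 3.70% and 11.6%, 1.95% and 2.82%, and 3.62% and 14.0%.

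The ribosomal protein median upstream was 0.353 after quantile normalization, 0.309 with the median over bins, 0.420 with H3 subtracted and 0.371 over genes with 1 copy, an alternative chosen after seeing the data; over the ORF it was 0.325 as deposited, 0.335 after quantile normalization and 0.379 with H3 subtracted. For ribosome biogenesis genes it was 0.212 upstream after quantile normalization and 0.118 with H3 subtracted, and over the ORF 0.117 as deposited and 0.127 after quantile normalization. For general stress-induced genes it was -0.178 upstream after quantile normalization and -0.270 with H3 subtracted, and over the ORF -0.036 as deposited and -0.079 with H3 subtracted. Of the 7 list medians upstream or over the ORF that were 0.2 or more in size, all kept their sign in the 37 alternatives run on them, and 29 of these kept a size of 0.2 or more. No alternatives were run on downstream list medians. For the other lists, 134 of 250 alternatives moved the median by less than 1 SD of the 5 sample medians over all ORFs and 116 by more, and some medians close to 0 changed sign.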
